A study of Homo sapiens with 6 samples.

Results

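Mon-Mac-6 is an established human line of monocytic leukaemia cells, and the genes described here are its mitochondrial SLC25 carriers. The members were chosen by name, as every gene called SLC25A followed by digits alone, which gave 46 of the 31853 genes in the deposited table. Cells received 500 nM WD6305, which the series title calls a PROTAC against METTL3, or DMSO, the vehicle, for 48 h before poly(A) RNA was sequenced, with 3 libraries per group. A PROTAC is a molecule that brings a target protein to a ubiquitin ligase, and METTL3 is the catalytic subunit of the enzyme that writes N6-methyladenosine on messenger RNA. All libraries came from the same line, which has no other genotype in the labels, and nothing in the labels tells whether its 3 libraries per group are separate cultures. Each p-value therefore weighs a difference between the groups against the spread between these libraries, which may be technical.

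SLC25 carriers are small membrane proteins built from repeated pairs of helices, and most sit in the inner mitochondrial membrane. Each moves a particular solute, such as ATP, phosphate, citrate, an amino acid or a cofactor, between the cytosol and the matrix, so the family sets which metabolites the compartments share. They are made in the cytosol, escorted across the intermembrane space by small TIM chaperones and inserted by the TIM22 complex.

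Deposited counts summed to between 64525948 and 69726451 in the WD6305 libraries and between 66525685 and 71155346 in the DMSO libraries. Values below are CPM, counts scaled to a common library total, on library sizes scaled by the TMM method, given as mean ± SD over 3 libraries. METTL3 RNA was 1.16-fold higher with WD6305 (adjusted p = 0.0218, edgeR quasi-likelihood test), a call lost in 6 of 14 alternatives (0.0501 to 0.0931), among them those without DMSO 2 or any 1 of the WD6305 libraries, and RNA does not show the level of the protein. All 8 myeloid markers examined had counts, with a summed level of 9690 to 11063 CPM with WD6305 and 5725 to 6183 CPM with DMSO. LYZ, lysozyme, made up most of that sum, at 9152 to 10527 CPM with WD6305 and 5256 to 5755 CPM with DMSO. Of the 8, 5 rose, CD14 fell by 0.37 (adjusted p = 0.0123, edgeR), and CD4 and FCGR1A were not called, at -0.89 and 0.06 in log2. CD4 was near 0, at 0.226 CPM with WD6305 and 0.419 CPM with DMSO, and its log2 value had an SE of 0.52. All 6 epithelial markers had counts in some library, with summed levels of 6.24 CPM in WD6305 1 and 7.23 CPM in DMSO 3, against 105 to 129 CPM in the other 4 libraries. KRT1, KRT14 and CDH1 had 0 counts in WD6305 1. KRT10 gave 6.13 CPM of the sum in WD6305 1 and 6.31 CPM in DMSO 3, and lay between 5.32 and 7.89 CPM over all 6 libraries. The 4 fibroblast markers summed to 43.5 CPM in WD6305 1, to 2.18 and 2.77 CPM in WD6305 2 and 3, and to 2.93 to 4.12 CPM with DMSO. The 2 erythroid markers measured summed to 0.0599 to 0.407 CPM with WD6305 and 0.364 to 0.732 CPM with DMSO, near 0. WD6305 1 and DMSO 3 also stood apart on the second principal component, and the results were computed without them as well. The part of these differences between libraries in the results below was not tested.

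The carriers differed greatly in level. SLC25A5 and SLC25A6, which exchange matrix ATP for cytosolic ADP, together held 59.4% of the summed carrier FPKM with WD6305 and 59.5% with DMSO. Their share depended on the scale: of the summed carrier CPM, not divided by length, they held 34.2% with WD6305 and 35.3% with DMSO. Per length, in the deposited FPKM, SLC25A6 stood at 253 with WD6305 and 280 with DMSO, and SLC25A5 at 267 with WD6305 and 275 with DMSO. SLC25A1, the citrate carrier, stood far lower, at 32.7 FPKM with WD6305 and 39.6 FPKM with DMSO. On the FPKM scale 35 of the 46 carriers averaged at least 1 with DMSO. The order depended on the gene length used. CPM per kilobase of the GENCODE v29 principal transcript put SLC25A3, the phosphate carrier, at rank 3 with 140 in DMSO, where FPKM put it at rank 7 with 25.0. The deposited counts and FPKM of SLC25A3 imply a length of 9446 bases, against 1678 bases for that transcript. For SLC25A26, the carrier of S-adenosylmethionine, the implied length was 23268 bases against a transcript of 2673 bases, and its level with DMSO was 0.573 FPKM or 4.95 CPM per kilobase.

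**Figure D1:**
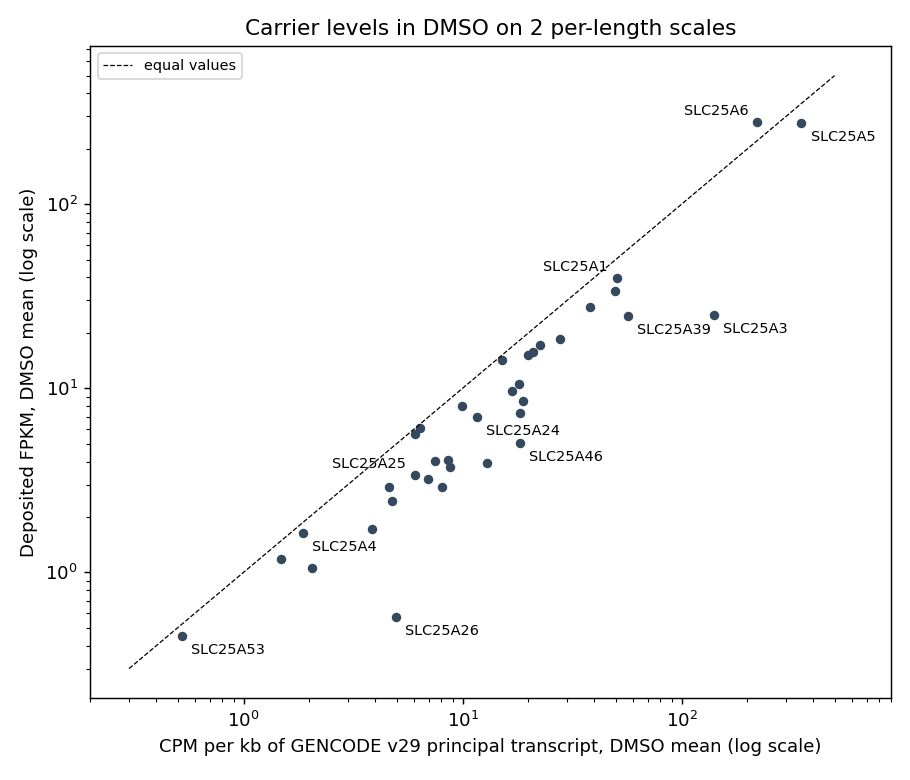
Level of each carrier with DMSO, as CPM per kilobase of the GENCODE v29 principal transcript (x axis, log scale) and as deposited FPKM (y axis, log scale); each point is the mean of 3 libraries for 1 carrier reported here with at least 0.3 FPKM, and the dashed line marks equal values. SLC25A5 and SLC25A6 lie far above the rest in FPKM and are the highest on the other scale too, at 353 and 222 with SLC25A3 at 140, while SLC25A3 and SLC25A26 lie furthest below the line.

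The 46 carriers together stood at 2505, 2543 and 2505 CPM with WD6305 and at 2641, 2566 and 2491 CPM with DMSO, so the groups overlapped. In a bulk sample, fewer expressing cells and less RNA per cell cannot be told apart. In FPKM the same sums were 863, 896 and 866 with WD6305, all below the 962, 926 and 909 with DMSO. Of the 46, 41 passed the filter on low counts and were tested. SLC25A2, SLC25A21, SLC25A27, SLC25A47 and SLC25A52 were not, with at most 15 counts in any library. With WD6305, 6 tested carriers rose and 5 fell (quasi-likelihood test in edgeR, with p adjusted over 18138 genes by Benjamini-Hochberg and a threshold of 0.05). That is 26.8% of those tested, against 23.4% of all tested genes, so the family as a whole was called about as often as other genes. By direction, 14.6% rose, against 12.2% of all genes, and 12.2% fell, against 11.2%. The median log2 fold change was -0.05 in the carriers and 0.00 in all tested genes. Groups did not overlap for 19 carriers, or 46.3%, against 40.8% of all tested genes; 10 carriers lay wholly higher, where 20.4% of all genes did, and 9 wholly lower, where 20.3% did. The count that rose was 3 without DMSO 2, 3 without WD6305 1 and 2 without WD6305 3, where 1643, 1639 and 1446 of all genes rose, against 2218 with all 6 libraries. With library sizes alone in place of TMM, 5 carriers rose and 7 fell, and of all genes 1998 rose and 2334 fell, against 2218 and 2031 with TMM. DESeq2 called 6 higher and 6 lower, where it called 30.6% of its 15676 genes, and limma on log2(FPKM + 1) called 6 higher and 7 lower, where 17.2% of its 11144 genes rose and 20.4% fell. In the 4 libraries left without WD6305 1 and DMSO 3, 4 carriers rose and 6 fell, where 12.4% and 9.89% of 18467 genes did, or 22.3% in all.

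**Figure D2:**
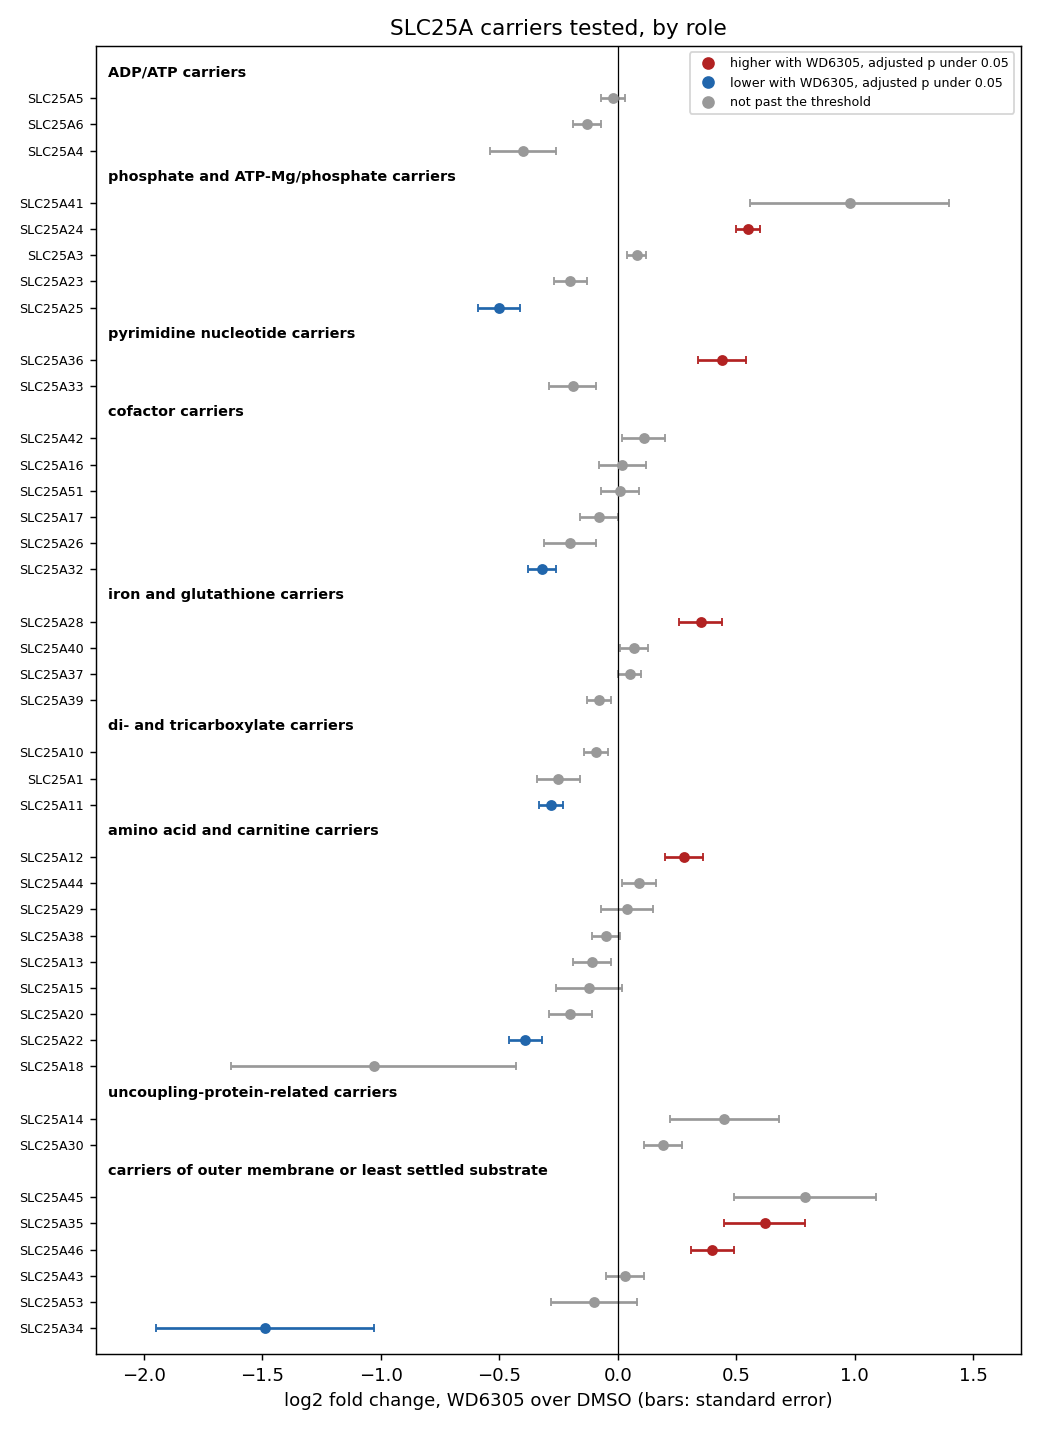
Log2 fold change of WD6305 over DMSO for the tested carriers reported here, grouped by role, with bars for the standard error (3 libraries per group); red points are higher and blue points lower at an adjusted p under 0.05, and grey points missed it. Called carriers of both directions are spread over the roles, and most points lie close to 0.

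The clearest split lay among the ATP-Mg/phosphate carriers, which adjust the matrix pool of adenine nucleotides and which, for SLC25A23, SLC25A24 and SLC25A25, are regulated by calcium. SLC25A24 (chr1:108134043-108200343, minus strand) had 73.8, 73.0 and 71.7 CPM with WD6305, against 50.8, 48.0 and 50.0 CPM with DMSO. Every WD6305 library lay above every DMSO library. It rose 1.47-fold, a log2 difference of 0.55 with an SE of 0.05 (adjusted p = 0.000235, edgeR), the smallest adjusted p among the carriers. SLC25A25 had 14.9, 16.4 and 13.6 CPM with WD6305, against 21.7, 21.6 and 20.1 CPM with DMSO, again with no overlap. It fell by 0.50 on the log2 scale (SE 0.09, adjusted p = 0.00447, edgeR). SLC25A23 averaged 83.2 ± 4.44 CPM with WD6305 and 95.3 ± 7.50 CPM with DMSO and missed the threshold (log2 fold change -0.20, adjusted p = 0.0713, edgeR), but passed without DMSO 3 (0.0258) and in DESeq2 (0.0266). SLC25A41 was scarce, at 0.516 ± 0.0637 CPM with WD6305 and 0.261 ± 0.00778 CPM with DMSO (adjusted p = 0.130, edgeR). SLC25A25 lies on the plus strand of chromosome 9 from 128068201 to 128109245 (GRCh38) and overlaps its antisense gene SLC25A25-AS1 over 665 bases. SLC25A25-AS1 fell as well, by 0.63 on the log2 scale (adjusted p = 0.0240, edgeR), to 4.12 CPM with WD6305 against 6.37 CPM with DMSO, a call lost in 6 alternatives (0.0521 to 0.0878), among them those without DMSO 1, DMSO 3, WD6305 2 or WD6305 3. The libraries keep the strand, but no source used here tells if the counting did, so reads of the 2 genes may be mixed.

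The sequences just upstream of the starts of 4 called carriers are shown because carriers of opposite direction held the same short motifs. They were chosen for holding a motif, so they do not stand for all called carriers. Each window, from RefSeq on GRCh38.p14, runs from 250 bases before to 50 bases after a gene start, on the gene's strand, and capitals mark the E-box CACGTG, a motif bound by MYC and its relatives, and the ETS core CCGGAAG or its reverse complement CTTCCGG. SLC25A24 (higher) is from chr1:108200294-108200593 on the minus strand, SLC25A25 (lower) from chr9:128067982-128068281 on the plus strand, SLC25A46 (higher) from chr5:110738757-110739056 on the plus strand, and SLC25A22 (lower) from chr11:795383-795682 on the minus strand.
SLC25A24: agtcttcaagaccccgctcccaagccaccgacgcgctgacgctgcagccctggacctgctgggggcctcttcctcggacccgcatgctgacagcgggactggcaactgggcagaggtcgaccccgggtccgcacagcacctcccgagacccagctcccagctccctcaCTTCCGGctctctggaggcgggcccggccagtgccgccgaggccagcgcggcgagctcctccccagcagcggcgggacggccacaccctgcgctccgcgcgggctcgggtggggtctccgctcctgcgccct
SLC25A25: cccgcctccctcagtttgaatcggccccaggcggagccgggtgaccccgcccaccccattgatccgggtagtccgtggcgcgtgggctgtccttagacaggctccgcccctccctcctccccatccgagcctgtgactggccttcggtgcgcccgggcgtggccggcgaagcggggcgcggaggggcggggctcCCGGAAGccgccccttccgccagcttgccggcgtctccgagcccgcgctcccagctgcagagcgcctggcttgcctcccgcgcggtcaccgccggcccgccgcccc
SLC25A46: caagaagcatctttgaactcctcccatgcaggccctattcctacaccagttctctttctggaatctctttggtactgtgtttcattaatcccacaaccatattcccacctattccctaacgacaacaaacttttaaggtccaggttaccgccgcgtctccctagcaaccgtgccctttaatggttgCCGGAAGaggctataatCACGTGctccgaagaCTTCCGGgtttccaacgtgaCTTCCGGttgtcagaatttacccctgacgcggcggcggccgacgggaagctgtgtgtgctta
SLC25A22: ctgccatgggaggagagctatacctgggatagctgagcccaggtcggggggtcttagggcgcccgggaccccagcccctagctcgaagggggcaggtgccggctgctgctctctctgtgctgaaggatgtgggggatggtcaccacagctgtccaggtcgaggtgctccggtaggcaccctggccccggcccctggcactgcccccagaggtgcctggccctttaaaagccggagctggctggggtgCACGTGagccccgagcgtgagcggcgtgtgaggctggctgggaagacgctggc
The ETS core starts 82 bases before the start of SLC25A24 and 56 bases before that of SLC25A25. SLC25A46 holds 3 ETS cores and an E-box, and this SLC25A22 window an E-box 3 bases before the start; the motifs do not overlap one another. Searched on both strands over the 48 RefSeq windows of 38 carrier genes, the E-box stood in 8 windows (16.7%), against 9.18% of the 16832 windows of tested genes and 7.26% of all 35116 windows. The ETS core stood in 11 carrier windows (22.9%), against 16.2% and 10.3%. The sets are not fully alike, since the 48 carrier windows include those of SLC25A21, SLC25A27, SLC25A47 and SLC25A52, which were not tested. Of these, SLC25A47 held an ETS core. SLC25A6 is counted on both X and Y. The 8 carriers with an E-box included SLC25A36 and SLC25A46, which rose, SLC25A22, which fell, and SLC25A13, SLC25A26, SLC25A33, SLC25A38 and SLC25A51, which were not called. The called carriers SLC25A11, SLC25A12, SLC25A28 and SLC25A34 held neither motif, and SLC25A32 and SLC25A35 had no window. SLC25A22, SLC25A24 and SLC25A25 have more than 1 start window, and these counts do not show which start was used. The windows shown for SLC25A46 and SLC25A22 lie wholly inside the deposited gene spans, chr5:110738136-110762267 and chr11:790475-798281, so the start is uncertain for SLC25A46 too. The letters TGATGCAA, the core of the ATF4 response element, were in 0 of the 48 carrier windows and in 0.547% of tested gene windows.

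The abundant ADP/ATP and phosphate carriers, which feed ATP synthesis, did not pass the test, and the intervals of their differences were narrow. SLC25A5 had 446, 437 and 448 CPM with WD6305, against 473, 451 and 425 CPM with DMSO, a log2 fold change of -0.02 with a 95% interval of -0.13 to 0.09. SLC25A6 had 392, 450 and 414 CPM with WD6305, against 489, 443 and 439 CPM with DMSO, an interval of -0.27 to 0.02. The groups overlapped for both. SLC25A4, the muscle-type ADP/ATP carrier, was low, at 6.32 ± 0.712 CPM with WD6305 and 8.31 ± 1.00 CPM with DMSO, with no overlap. It missed the threshold (log2 fold change -0.40, adjusted p = 0.0679, edgeR), and its unadjusted 95% interval was wider, at -0.71 to -0.09. SLC25A3 averaged 247 ± 1.84 CPM with WD6305 and 234 ± 9.86 CPM with DMSO, with no overlap and an interval of -0.02 to 0.18 on the log2 scale.

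Of the pyrimidine nucleotide carriers, which supply mitochondrial DNA and RNA synthesis, SLC25A36 (chr3:140941830-140980995, plus strand) rose. It had 59.4, 51.6 and 55.3 CPM with WD6305, against 36.4, 38.8 and 47.2 CPM with DMSO. The DMSO 3 library was the highest of its group and the groups did not overlap. It rose by 0.44 on the log2 scale, with an SE of 0.10 (adjusted p = 0.0145, edgeR), and the call was lost without DMSO 2, WD6305 1 or WD6305 3 (adjusted p = 0.0534 to 0.0564). SLC25A33 averaged 21.7 ± 2.28 CPM with WD6305 and 24.7 ± 2.45 CPM with DMSO and was not called (log2 fold change -0.19).

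Among cofactor carriers 1 of 7 tested fell and none rose, where 11.2% of all tested genes fell and 12.2% rose. SLC25A32 (chr8:103398635-103415189, minus strand), which brings folate and FAD into mitochondria, had 48.5, 49.2 and 48.6 CPM with WD6305, against 62.4, 60.5 and 59.1 CPM with DMSO. The WD6305 libraries were tightly grouped and all below DMSO. It fell by 0.32 on the log2 scale (SE 0.06, adjusted p = 0.00406, edgeR). Of its 100-base windows 87.7% are also in a transcript of another gene, AC012213.5, which had at most 4 counts in any library. SLC25A32 overlaps DCAF13 on the other strand over 476 bases, and DCAF13 fell by 0.25 (adjusted p = 0.0169, edgeR), a call lost without WD6305 2 (0.0688) or WD6305 3 (0.0813). SLC25A26 (chr3:66133610-66388116, plus strand) imports S-adenosylmethionine, the methyl donor that METTL3 uses in the nucleus and that mitochondrial methyltransferases use in the matrix. It had 11.2, 10.9 and 12.3 CPM with WD6305, against 15.0, 12.9 and 11.9 CPM with DMSO. The groups overlapped, and the log2 fold change of -0.20 did not pass (95% interval -0.45 to 0.05, adjusted p = 0.224, edgeR). SLC25A26 overlaps LRIG1 on the other strand over 9320 bases, with mean counts of 839.5 and 767.8, so reads of the 2 genes may be mixed. LRIG1 was not called (log2 fold change 0.18), though every WD6305 library lay above every DMSO library. The NAD carrier SLC25A51, the coenzyme A carriers SLC25A42 and SLC25A16 and the peroxisomal carrier SLC25A17 lay between -0.08 and 0.11. SLC25A51 shares 13.1% of its 100-base windows with transcripts of other genes, mostly its near-copy SLC25A52, which had at most 15 counts in any library. It also overlaps TMX2P1 on the other strand over 708 bases, with mean counts of 987.5 for SLC25A51 and 702.7 for TMX2P1. Reads of these genes may be mixed, and TMX2P1 was not called (log2 fold change -0.08).

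Iron enters mitochondria through the mitoferrins SLC25A28 and SLC25A37, and glutathione through SLC25A39 and SLC25A40. SLC25A28 (chr10:99610519-99622793, minus strand) had 32.7, 33.7 and 35.0 CPM with WD6305, against 29.2, 23.8 and 26.5 CPM with DMSO. All WD6305 libraries were higher, a rise of 0.35 in log2 with an SE of 0.09 (adjusted p = 0.0193, edgeR). The call was lost without DMSO 2, WD6305 2 or WD6305 3 (adjusted p = 0.0596 to 0.0821). SLC25A37, the mitoferrin of red cell precursors, averaged 84.8 ± 2.17 CPM with WD6305 and 81.6 ± 1.49 CPM with DMSO, a log2 fold change of 0.05 with an interval of -0.05 to 0.16. SLC25A39 and SLC25A40 had log2 fold changes of -0.08 and 0.07 and were not called.

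The di- and tricarboxylate carriers link the citric acid cycle to the cytosol, and the 3 tested all had negative log2 fold changes, of which 1 passed. Of all 18138 tested genes, 9059 had a negative log2 fold change and 11.2% fell, so a count over 3 genes says little about the group. SLC25A11 (chr17:4937130-4940046, minus strand), which exchanges 2-oxoglutarate for malate in the malate-aspartate shuttle, had 60.4, 60.6 and 57.2 CPM with WD6305, against 70.0, 73.3 and 73.1 CPM with DMSO. The groups were well apart. It fell by 0.28 on the log2 scale (SE 0.05, adjusted p = 0.00636, edgeR). SLC25A1, which exports citrate for fatty acid synthesis, had 72.6, 71.9 and 65.0 CPM with WD6305, against 90.1, 87.3 and 72.2 CPM with DMSO. The DMSO 3 library overlapped the WD6305 group, and the log2 fold change of -0.25 missed the threshold (adjusted p = 0.0699, edgeR). Without DMSO 3 it was -0.35 and passed (adjusted p = 0.00538, edgeR), as it did in DESeq2 (0.0132). SLC25A10, the dicarboxylate carrier, had -0.09 and was not called; 62.9% of its 100-base windows are shared with AC139530.2, not analysed here.

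Of 9 amino acid and carnitine carriers tested, 1 rose, 1 fell and 7 were not called. Each direction held 11.1% of them, against 12.2% of all tested genes that rose and 11.2% that fell. SLC25A22 (chr11:790475-798281, minus strand), a glutamate carrier, had 37.3, 38.5 and 40.3 CPM with WD6305, against 49.9, 53.4 and 49.3 CPM with DMSO. No WD6305 library reached the DMSO range. It fell by 0.39 on the log2 scale (SE 0.07, adjusted p = 0.00312, edgeR), the smallest adjusted p among the carriers that fell. SLC25A12 (chr2:171783405-171999859, minus strand), an aspartate-glutamate carrier of the malate-aspartate shuttle, had 27.5, 23.0 and 25.6 CPM with WD6305, against 20.6, 21.2 and 20.7 CPM with DMSO. Its rise of 0.28 (SE 0.08, adjusted p = 0.0373, edgeR) was lost in 9 of 14 alternatives, among them those without any 1 of the DMSO libraries, WD6305 1 or WD6305 3, and the 4 libraries left without WD6305 1 and DMSO 3 (0.154). SLC25A12 overlaps HAT1 on the other strand over 61239 bases, and HAT1 had a log2 fold change of 0.00. SLC25A13, the other aspartate-glutamate carrier, averaged 29 ± 2.32 CPM with WD6305 and 31.3 ± 1.01 CPM with DMSO and was not called. SLC25A20, the carnitine-acylcarnitine carrier, averaged 24.6 ± 1.14 CPM with WD6305 and 28.4 ± 2.80 CPM with DMSO, with no overlap, and did not pass in edgeR (adjusted p = 0.135) but did in limma on log2(FPKM + 1) (0.0441). The branched-chain amino acid carrier SLC25A44, the basic amino acid carrier SLC25A29, the glycine carrier SLC25A38 and the ornithine carrier SLC25A15 lay between -0.12 and 0.09. SLC25A18, a glutamate carrier, was scarce, at 0.170 ± 0.0733 CPM with WD6305 and 0.348 ± 0.126 CPM with DMSO.

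SLC25A46 (chr5:110738136-110762267, plus strand) sits in the outer membrane, where it takes part in mitochondrial shape and fission. It had 59.1, 58.3 and 56.0 CPM with WD6305, against 41.1, 40.1 and 50.0 CPM with DMSO. DMSO 3 was again the highest of its group, still below every WD6305 library. It rose 1.32-fold, by 0.40 on the log2 scale with an SE of 0.09 (adjusted p = 0.0118, edgeR). SLC25A35 (chr17:8287763-8295343, minus strand), whose substrate is less settled, had 10.5, 12.1 and 10.4 CPM with WD6305, against 6.11, 9.23 and 6.14 CPM with DMSO. The rise of 0.62 in log2, with an SE of 0.17 (adjusted p = 0.0292, edgeR), lost its call in 7 of 14 alternatives (0.0626 to 0.103), among them those without DMSO 1, DMSO 3 or any 1 of the WD6305 libraries. SLC25A35 overlaps RANGRF on the other strand over 1439 bases, and RANGRF was not called (-0.12). SLC25A34 (chr1:15736258-15741392, plus strand) had 9, 17 and 21 counts with WD6305, against 38, 43 and 55 counts with DMSO. It fell by 1.49 on the log2 scale, with an SE of 0.46 (adjusted p = 0.0477, edgeR), and the call was lost in 10 of the 11 alternatives that gave it a value (0.0521 to 0.219), among them leaving out any 1 of the 6 libraries. SLC25A34 was the only called carrier that changed at least 2-fold, where 2.3% of all tested genes were called and changed that much. SLC25A45, SLC25A43 and SLC25A53 and the uncoupling-protein relatives SLC25A14 and SLC25A30 were not called, with log2 fold changes from -0.10 to 0.79.

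**Figure D3:**
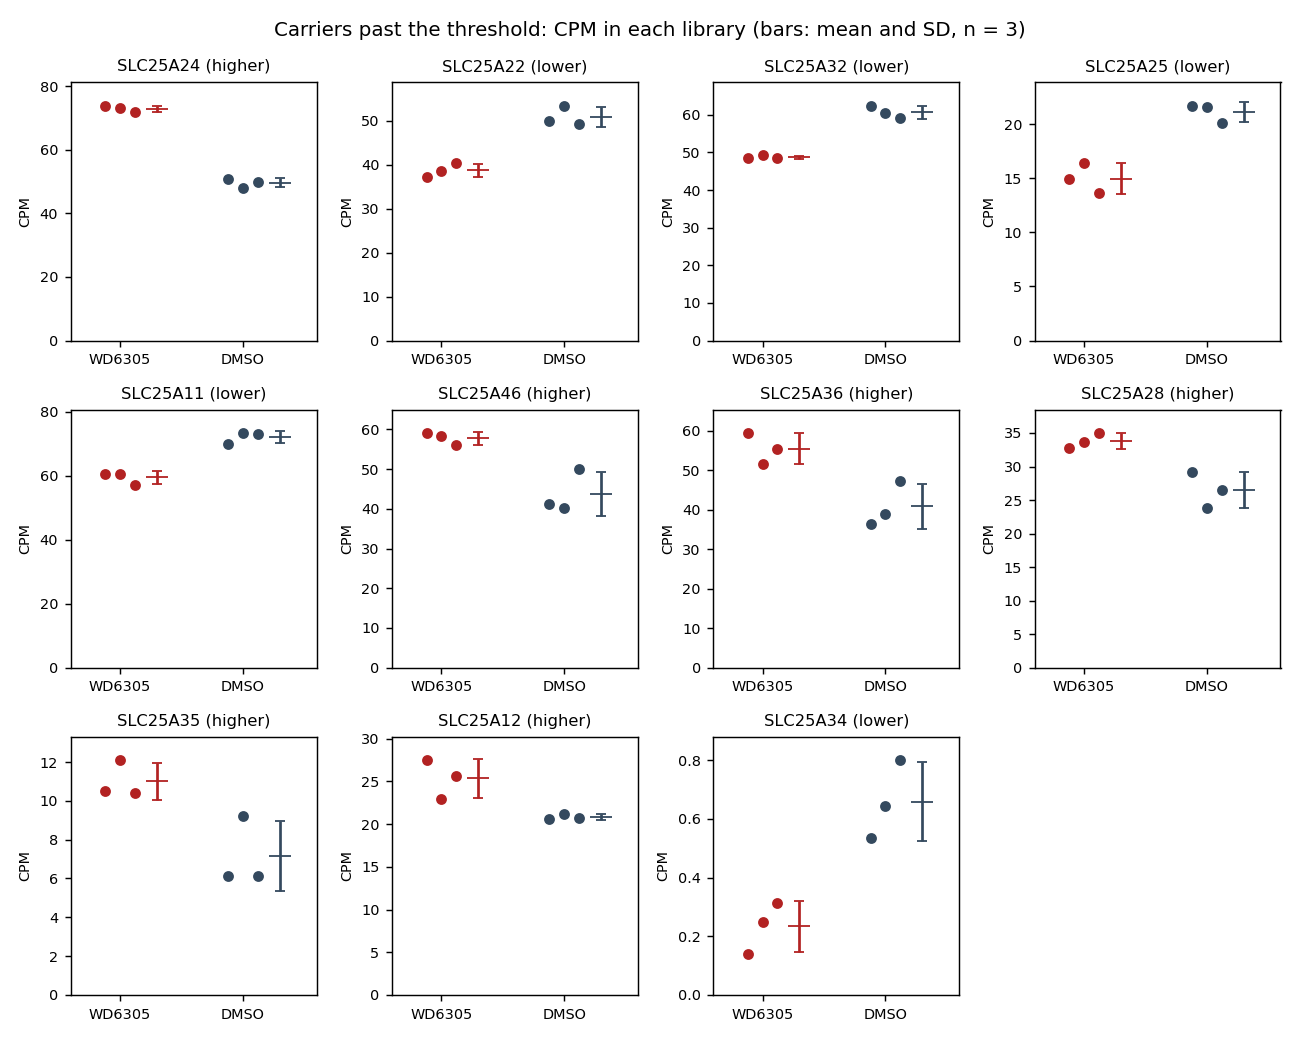
CPM in each library for the 11 carriers past an adjusted p of 0.05, with WD6305 libraries in red on the left and DMSO libraries in dark grey on the right of each panel; bars give the mean and SD of 3 libraries, and each axis starts at 0. The groups do not overlap in any panel, and SLC25A24 and SLC25A25 move in opposite directions.

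A ratio of 2 carriers within a library removes the library's scaling, and 8 pairs of related carriers, chosen after their values were seen, were compared in this way. The log2 ratio of SLC25A24 to SLC25A25 was 2.31, 2.15 and 2.40 with WD6305, against 1.23, 1.15 and 1.31 with DMSO, a difference of 1.06. Every WD6305 library had the higher ratio. The log2 ratio of SLC25A12 to SLC25A13 averaged -0.20 ± 0.02 with WD6305 and -0.59 ± 0.07 with DMSO. That of SLC25A36 to SLC25A33 averaged 1.36 ± 0.21 with WD6305 and 0.72 ± 0.31 with DMSO. That of SLC25A28 to SLC25A37 averaged -1.33 ± 0.04 with WD6305 and -1.63 ± 0.16 with DMSO. The groups did not overlap for 6 pairs, and overlapped for SLC25A5 with SLC25A6 and for SLC25A39 with SLC25A40. Each of the 6 pairs holds at least 1 called carrier and the overlapping pairs hold none, so the ratios are not separate evidence from the calls. The pairs among SLC25A23, SLC25A24 and SLC25A25 also share genes, and no share over other gene pairs is given. Exact permutation tests, two-sided, returned p = 0.1 for each of the 6, the smallest that 3 against 3 allows (0.133 after Benjamini-Hochberg adjustment over the 8 pairs), so no pair could pass.

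**Figure D4:**
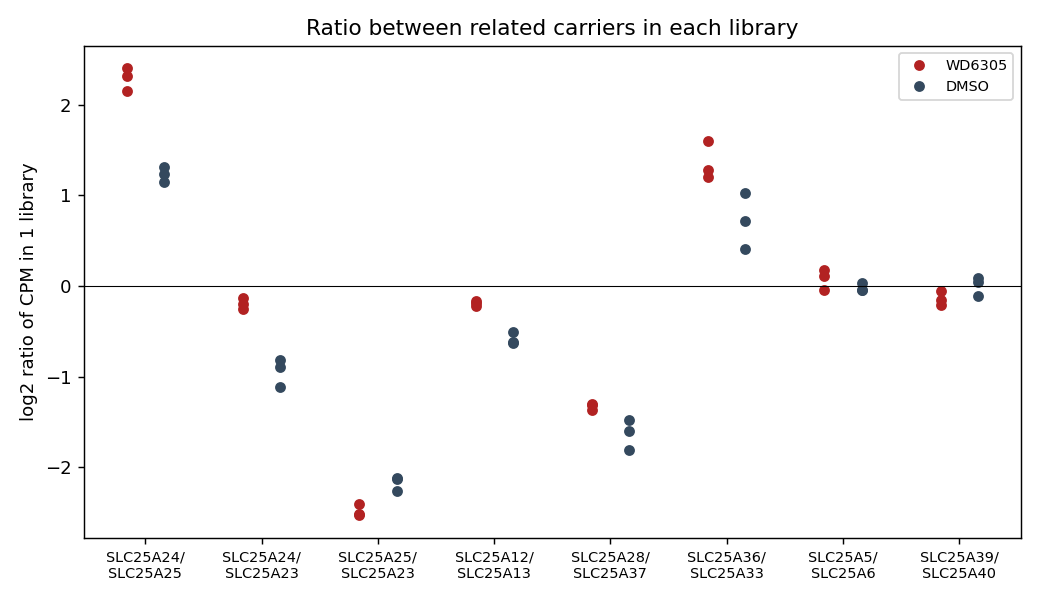
Log2 ratio of CPM between 2 related carriers in each library, for 8 pairs, with WD6305 libraries in red left of DMSO libraries in dark grey; each point is 1 library. The ratio of SLC25A24 to SLC25A25 shows the widest gap between groups, 1.06, and the ADP/ATP carrier pair overlaps.

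Genes that work beside the carriers are given by counts, with no test of a list, beside 11.2% of all tested genes that fell and 12.2% that rose. Those shares include scarce genes, and the lists were not set beside genes of like level. In limma on log2(FPKM + 1), over 11144 genes with at least 1 FPKM in 3 libraries, 20.4% fell and 17.2% rose. Among family members under other names, MTCH2, an outer membrane insertase, averaged 91.7 ± 2.33 CPM with WD6305 and 128 ± 2.78 CPM with DMSO (log2 fold change -0.48, adjusted p = 0.000198, edgeR), and MTCH1 fell by 0.28. UCP2 stood at 68.0 CPM in both groups, and UCP3 was not called. Of 10 genes of TIM22 carrier import, 5 fell and none rose, with a median of -0.25. They were TOMM70, the receptor for carriers, TIMM10B and TIMM13, small chaperones of the intermembrane space, TIMM22, the insertion channel, and AGK, its partner. TIMM13 and TIMM10B fell by 0.41 and 0.37. The call of TOMM70 was lost without WD6305 2 or WD6305 3 (adjusted p = 0.0557 and 0.0704, edgeR), and that of AGK in 5 alternatives (0.0512 to 0.0767), among them those without DMSO 1 or any 1 of the WD6305 libraries. TIMM22 lost its call in 5 (0.0631 to 0.124), among them those without DMSO 1, DMSO 2, WD6305 2 or WD6305 3.

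Enzymes that use or supply the carried solutes made up the next lists. Of 9 genes of mitochondrial one-carbon metabolism and S-adenosylmethionine supply, 5 fell and 1 rose. SHMT2 and MTHFD2, which use the folate that SLC25A32 brings in, averaged 202 ± 11.9 and 162 ± 5.79 CPM with WD6305, against 260 ± 12.1 and 203 ± 3.31 CPM with DMSO. MTHFD2L, a relative of MTHFD2, rose by 0.57. Of 7 shuttle and glutamate enzymes 3 fell, with GOT2 and MDH2, the mitochondrial enzymes of the malate-aspartate shuttle, at -0.54 and -0.42, and their cytosolic counterparts GOT1 and MDH1 at 0.02 and -0.13, not called. Of 7 genes of citrate synthesis and use 5 fell, with FASN, the fatty acid synthase, averaging 1095 ± 64 CPM with WD6305 and 1857 ± 96.4 CPM with DMSO, and ACACA and ACLY at -0.51 and -0.28. Of 17 ATP synthase subunits 7 fell and none rose, with ATP5F1B at -0.40. Of 13 genes of the carnitine shuttle and fatty acid oxidation 6 fell and 1, ACADM, rose. ACADM, ETFA and ETFB kept the call in every alternative. HADH lost it in 6 (adjusted p = 0.0513 to 0.11, edgeR). CPT1A, ACADVL and ETFDH each lost it without DMSO 2, WD6305 1 or WD6305 3 (0.0572 to 0.135, edgeR). Among the genes counted above as lower, GLUD1, CS, MTHFD1L, MTFMT, ATP5F1C, ATP5PB and ATP5MF also lost the call in at least 1 alternative.

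Other transporters of the inner membrane went both ways, with 3 of 17 higher and 4 lower. MCU, the pore of the calcium uniporter, had 93.2, 90.9 and 98.6 CPM with WD6305, against 56.8, 57.9 and 59.8 CPM with DMSO, and rose 1.62-fold, or 0.70 in log2 with an SE of 0.05 (adjusted p = 9.57e-05, edgeR). SLC8B1, the sodium-calcium exchanger, rose by 0.37. SFXN1, a serine transporter, fell by 0.40, SFXN2 by 0.43, LETM1, an ion exchanger, by 0.26, and MPC2, a subunit of the pyruvate carrier, by 0.32. The call of SFXN2 was lost in 5 alternatives (0.0509 to 0.0765), among them those without DMSO 2, WD6305 1 or WD6305 3, and that of MPC2 in 6 (0.0757 to 0.117), among them those without DMSO 1, WD6305 1 or WD6305 3. Of 16 genes of haem and iron-sulphur synthesis 3 rose and 2 fell, among them FDX1 at 0.43, whose call was lost without both WD6305 1 and DMSO 3 (0.0611), and FDXR, the reductase of ferredoxin, at -0.54. ALAS1, the first enzyme of haem synthesis, had a call (log2 fold change 0.19, adjusted p = 0.0434, edgeR) that was lost in 10 alternatives (0.0578 to 0.146), among them those without any 1 of the DMSO libraries, WD6305 2 or WD6305 3.

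**Figure D5:**
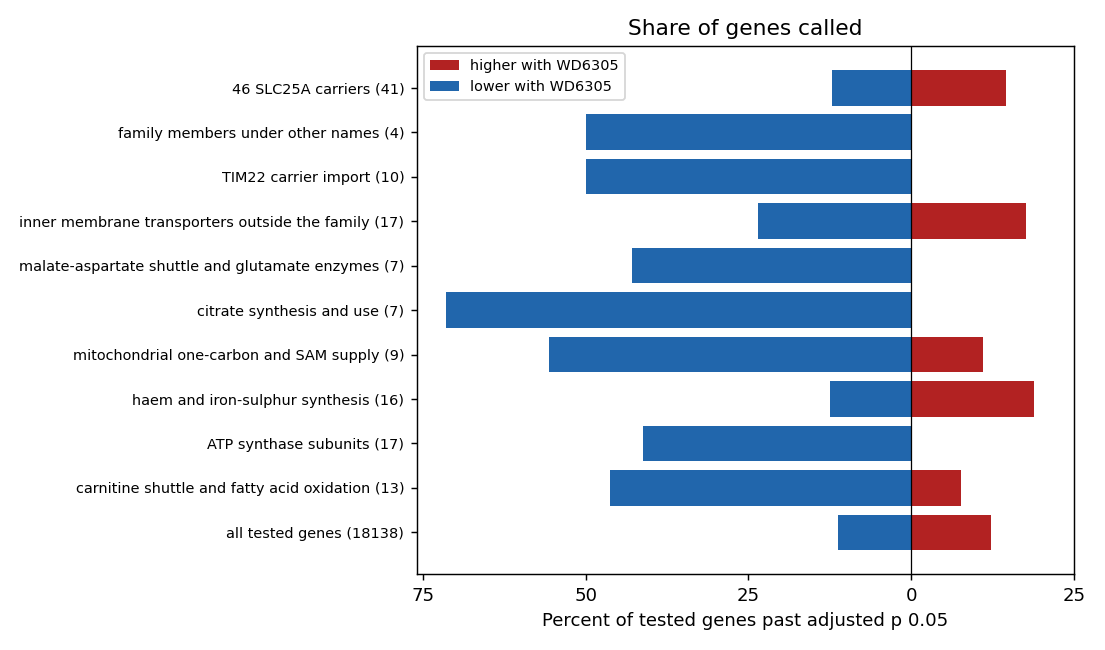
Percent of tested genes past an adjusted p of 0.05 in all genes, in the SLC25A carriers and in related lists, with genes lower with WD6305 drawn to the left and genes higher to the right of 0; the number of genes tested stands in brackets. The carriers, at 12.2% lower and 14.6% higher, lie close to all tested genes, at 11.2% and 12.2%.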

How the data were processed

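Libraries were made from polyadenylated RNA with dUTP marking of the second strand and read as paired ends, per the labels' protocols. The tools fastp, HISAT2, StringTie and edgeR and the build GRCh38 are named, with no version or setting, per the submitters' processing notes; the annotation is not named. What was deposited as estimated counts held whole numbers only, so rounding changed none. The counts pile up at multiples of 4 among low genes (1071 to 1176 genes per library at a count of 4, 553 to 636 at 3), so 1 read pair may be worth 4 counts, and the error of each value comes from its replicates, not from counting. The deposited FPKM values were normalised to length and depth by the authors, per the file headers. Gene positions were read from the same table, which had 0 sample columns left unused.

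Genes were kept with filterByExpr in edgeR 4.0.16 (R 4.3.3), scaled by TMM (factors 0.987 to 1.02) and tested two-sided with the quasi-likelihood test over all 6 libraries, with Benjamini-Hochberg adjustment over 18138 genes at 0.05. The standard error came from the F value, and 95% intervals from it and the test's degrees of freedom. CPM is the count per 1e6 of the TMM-scaled total over tested genes. DESeq2 1.42.0, limma 3.58.1 on log2(FPKM + 1) or log2(FPKM + 0.1), total library sizes, no filter, counts divided by 4, leaving out libraries and a replicate block were alternatives. The scripts were tested on simulated data. Chi-square per degree of freedom of counts divided by 4 was 3.77 to 10.4 between libraries of a group, so no 2 libraries were alike within counting noise.

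The carriers and the gene lists (9 role groups, 9 related lists, 6 marker lists) were chosen with earlier results of these data known. Named were the called carriers, SLC25A26, carriers of the same roles, and up to 4 genes per related list by adjusted p. Further genes of these lists were named after their values were seen. Of 102 entries in the related lists 100 matched the table. The T cell markers and UCP1 were not analysed here. Shared sequence was counted as identical 100-base windows between each carrier's principal GENCODE v29 transcript and transcripts of other genes. Some genes enter the counts, sums and ranks but are not reported here by name.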

Additional observations from a re-analysis of the deposited data

How the results depend on the processing

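Each called carrier kept its direction in the alternatives that gave it a value, as did the 36 named genes of related lists except UCP2, which lay at -0.00 and took either sign. Of the other carriers, 6 changed sign in at least 1 alternative (SLC25A5, SLC25A15, SLC25A16, SLC25A29, SLC25A43 and SLC25A51), none of them called and each within 0.12 of 0 on the log2 scale in all 6 libraries. Of the 11 called carriers, 6 (SLC25A24, SLC25A46, SLC25A22, SLC25A32, SLC25A25 and SLC25A11) kept the call in every alternative, and 5 (SLC25A36, SLC25A28, SLC25A12, SLC25A35 and SLC25A34) lost it in at least 1; the cause was not tested. Leaving out 1 library gave 2 to 4 carriers higher and 4 to 6 lower, against 6 and 5 with all 6 libraries, and 1446 to 2563 genes higher and 1310 to 2077 lower in all, lowest without WD6305 3 for each direction of all genes. SLC25A1 and SLC25A23, not called, passed in 7 and 6 alternatives, both with DESeq2, with library sizes alone and without DMSO 3. The replicate numbers of the labels did not pair the libraries: deviations from the group means correlated at -0.181, 0.0782 and -0.146 for libraries 1, 2 and 3 across genes, and the highest of all pairings was WD6305 1 with DMSO 3 (0.265). With the replicate number as a block, 5 carriers were higher and 5 lower, and 1736 and 1468 genes in all. SLC25A34, SLC25A18 and SLC25A41 averaged under 1 CPM in both groups, and their standard errors were 0.46, 0.60 and 0.42 on the log2 scale.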
